A study of Mus musculus with 6 samples.

Results

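The genes described here encode 8 nonfibrillar interstitial collagen chains, taken by name and not by any measured value, out of 42256 gene identifiers in the deposited table. They are Col6a1, Col6a2 and Col6a3 of collagen VI, Col8a1 and Col8a2 of collagen VIII, and Col12a1, Col14a1 and Col16a1 of the fibril-associated collagens with interrupted triple helices (FACITs). RNA was sequenced from PDGFRa+ cells, a fibroblast-enriched fraction sorted from the infarct scar of mouse hearts 7 days after injury. The 4 Htr2b_cKO libraries came from mice labelled Htr2bfl/flPostnMCM/+, in which the serotonin receptor gene Htr2b is floxed and the inducible MerCreMer recombinase (MCM) sits at 1 Postn allele. The 2 control libraries came from mice labelled Htr2bfl/fl, which carry the floxed gene and no Cre. Mice of both groups were of mixed 129S2/C57Bl6 strain and were fed tamoxifen chow beginning 1 week ahead of the injury; their age is not given in the sources used here. The Cre is expressed where Postn is active, so sorted cells that never switched Postn on keep Htr2b. No control carried the Cre, so effects of the Cre, of the altered Postn allele and of losing Htr2b cannot be told apart. The comparison asks how losing this receptor in myofibroblasts alters RNA levels in scar fibroblasts.

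Collagen VI is assembled from an alpha1, an alpha2 and an alpha3 chain and forms beaded microfilaments that link cells to the surrounding fibrils. Collagen VIII is a short-chain collagen that forms lattices, best known from the walls of blood vessels and the cornea, and its chains are encoded by Col8a1 and Col8a2. The FACITs coat the surface of fibrils: collagens XII and XIV bind collagen I fibrils and space or bridge them, and collagen XVI occurs in small amounts in several connective tissues. All of them are made by fibroblasts of the heart. In mice, loss of Col6a1 is known to alter remodelling after infarction, and in humans variants of the collagen VI and XII genes cause muscle disease.

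The start regions of 5 members are shown. Collagen VI is assembled from different chains, whose RNA kept similar proportions in every library, as described further on. The collagen VIII pair, shown beside them, was less fixed. Col6a1 and Col6a2 are neighbours on chromosome 10, on the same strand and 85161 bases apart in the mm10 annotation, and Col6a3 lies on chromosome 1. The sequences come from RefSeq (build GRCm38.p6, the assembly of mm10) and are written 5′ to 3′ on the gene's strand, ending just before the outermost annotated start. Capitals mark matches to GGGCGG, the GC box, on either strand, where it reads CCGCCC.
Col6a1 (chr10:76726169-76726294, minus strand): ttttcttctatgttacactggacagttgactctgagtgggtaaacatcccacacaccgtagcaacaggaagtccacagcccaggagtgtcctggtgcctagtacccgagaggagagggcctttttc
Col6a2 (chr10:76623631-76623880, minus strand): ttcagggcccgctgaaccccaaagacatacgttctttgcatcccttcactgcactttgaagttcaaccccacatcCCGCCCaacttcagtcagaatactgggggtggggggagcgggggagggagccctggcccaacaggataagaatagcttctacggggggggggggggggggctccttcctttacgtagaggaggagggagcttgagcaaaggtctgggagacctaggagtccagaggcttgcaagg
Col6a3 (chr1:90843972-90844221, minus strand): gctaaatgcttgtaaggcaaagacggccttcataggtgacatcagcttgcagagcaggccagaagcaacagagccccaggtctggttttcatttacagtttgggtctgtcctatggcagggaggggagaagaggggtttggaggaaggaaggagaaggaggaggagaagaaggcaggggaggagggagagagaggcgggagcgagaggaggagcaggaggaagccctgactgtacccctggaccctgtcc
Col8a1 (chr16:57754738-57754987, minus strand): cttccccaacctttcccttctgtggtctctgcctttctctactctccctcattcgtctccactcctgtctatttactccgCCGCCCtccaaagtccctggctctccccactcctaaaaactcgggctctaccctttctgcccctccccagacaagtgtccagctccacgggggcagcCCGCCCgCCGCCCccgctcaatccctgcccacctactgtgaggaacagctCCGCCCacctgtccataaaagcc
Col8a2 (chr4:126286544-126286792, plus strand): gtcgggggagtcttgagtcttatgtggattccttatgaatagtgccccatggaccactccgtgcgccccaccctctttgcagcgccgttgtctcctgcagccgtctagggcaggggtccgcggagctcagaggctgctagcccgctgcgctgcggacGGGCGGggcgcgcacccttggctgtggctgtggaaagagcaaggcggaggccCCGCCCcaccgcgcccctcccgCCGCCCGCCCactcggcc
In the RefSeq windows of 250 bases before the start, 6 of the 8 members were found, with 7 windows in all. Both collagen VIII chains held 4 matches to GGGCGG, overlapping matches counted, and 4.09% of all 32851 windows held that many. G and C made up 70.0% of the Col8a2 window and 60.8% of the Col8a1 window, against a median of 52.4% over all windows. The share of 4.09% is not matched for this content, and its part in the matches was not tested. The collagen VI chains had no motif in common among those searched on both strands. GGGCGG was found once in the Col6a2 window shown and in 32.7% of all windows. TGANTCA, the AP-1 motif, was found in the Col6a1 window, 90 bases before the RefSeq start, in a part not printed because another annotated transcript covers it; 6.75% of all windows held it. CCAAT (33.8% of windows), TATAAA (12.4%) and GGAATG, the TEAD motif (12.6%), were found in none of the sequences shown. The other Col6a2 window, mostly covered by another annotated transcript and not printed, held 3 matches to GGGCGG and 1 to GGAATG. The Col16a1 window, also not printed, held 1 match to GGGCGG and 1 to CCAAT.

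Library totals ran from 28533427 to 37392496 estimated counts, and all 8 members had at least 446 counts in every library. The library labelled Htr2b_cKO 3 had the most reads of the targeted gene, with 29 counts of Htr2b; the other Htr2b_cKO libraries had 0, 3 and 4 counts and the controls 13 and 7. Htr2b is therefore too sparse to check the labels. In the library labelled Htr2b_cKO 3 its count was above both controls, and that count cannot decide whether the label is right. The library labelled Htr2b_cKO 4 was the only male, with 139 CPM (reads of a gene relative to the scaled library total) summed over the Y-linked genes Ddx3y, Eif2s3y, Kdm5d and Uty, against at most 0.483 CPM in each other library. All 7 fibroblast markers were detected in every library, between 26.1 CPM (Tcf21 in control 2) and 36309 CPM (Col1a1 in the library labelled Htr2b_cKO 4), with Pdgfra at 900 ± 204 CPM in Htr2b_cKO and 985 ± 357 CPM in control libraries (SD, n = 4 and 2). The 8 macrophage markers summed to 760, 2018, 3946 and 316 CPM in Htr2b_cKO libraries 1 to 4, and to 2345 and 718 CPM in control libraries. The Htr2b_cKO sums thus lay both above and below the controls. The 6 endothelial markers summed to 44.1 to 88.1 CPM in Htr2b_cKO and to 46.6 and 235 CPM in control libraries, and the 8 mural markers to 253 to 369 CPM and to 295 and 379 CPM. The 5 lymphocyte markers summed to 141 to 881 CPM in Htr2b_cKO and to 1042 and 1055 CPM in control libraries, and the 4 Schwann cell markers to 1.30 to 3.14 CPM and to 0.546 and 1.16 CPM; these were the lists whose groups did not overlap. Neutrophil markers (24.1 to 76.7 CPM in Htr2b_cKO, 33.8 and 97.8 CPM in control libraries), cardiomyocyte markers (11.2 to 28.6 CPM, 10.2 and 38.8 CPM) and epicardial markers (212 to 269.96 CPM, 266 and 348 CPM) overlapped. No marker was called or was at 0 in all libraries, and the part of these cells in the results was not tested. In sorted bulk RNA, fewer cells of a type and less RNA per cell cannot be told apart.

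Per length, the collagen VI chains and Col14a1 were the most abundant members. Over all 6 libraries and per kilobase (kb) of annotated exon, Col6a1 averaged 465 ± 109 CPM (SD, n = 6), Col6a2 251 ± 47.8, Col14a1 162 ± 25.7 and Col6a3 80.9 ± 24.4 CPM. The ranges of these 4 genes did not overlap, although that of Col14a1 ended at 123 and that of Col6a3 at 121 CPM per kb. Col16a1 followed at 58.1 ± 6.70 CPM per kb, Col8a1 at 34.7 ± 12.3, Col12a1 at 25.3 ± 12.3 and Col8a2 at 8.79 ± 4.32 CPM per kb. From Col6a3 downwards each gene overlapped its neighbour in this order. The order depends on the length used: per kb of the longest coding sequence Col6a2 (674 CPM) stood above Col6a1 (662 CPM), and Col8a1 (122 CPM) above Col6a3 (98.3 CPM) and Col16a1 (82.7 CPM). By CPM without a length, Col6a2 and Col6a1 ranked 25 and 26 among the 15840 genes tested, and Col8a2 ranked 4421.

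**Figure D1:**
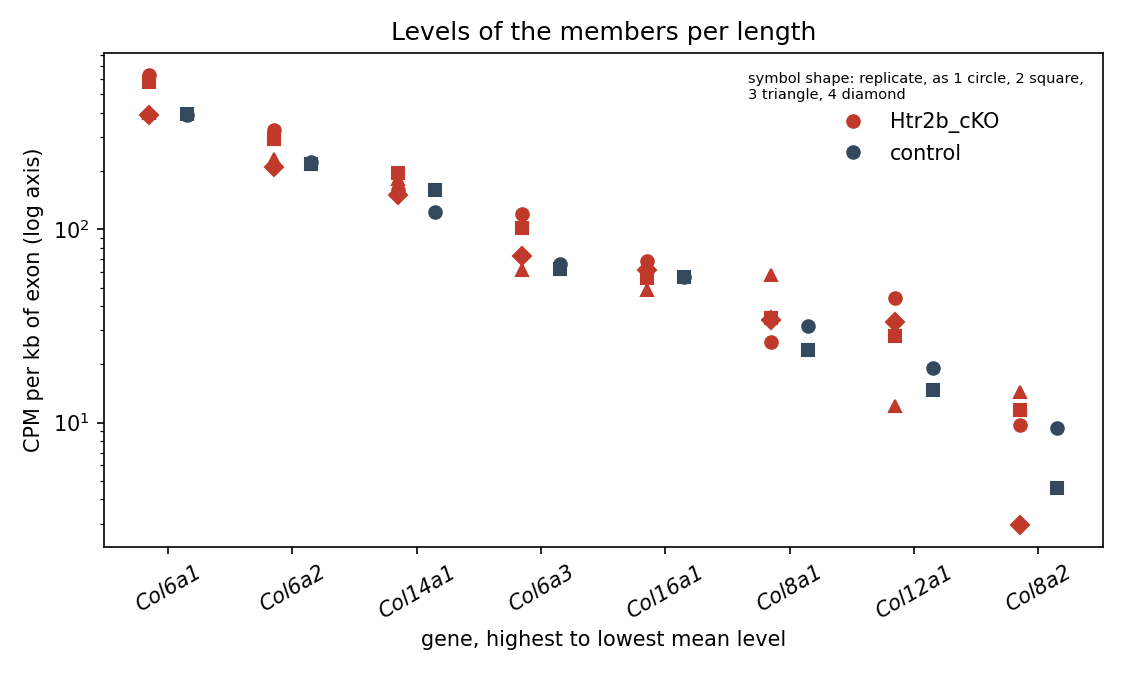
Level of each member per library in CPM per kb of exon on a log axis, with genes ordered from the highest to the lowest mean over the 6 libraries; each point is 1 library, Htr2b_cKO left of control. Col6a1 lies between 389 and 627 CPM per kb and Col8a2 between 2.95 and 14.4 CPM per kb.

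The collagen VI chains had high RNA levels in Htr2b_cKO 1 and 2 and levels close to those of the controls in the other Htr2b_cKO libraries. Col6a1 (ENSMUSG00000001119, chromosome 10 from 76708792 to 76726168), the alpha1 chain, had 2747, 2544, 1762 and 1719 CPM in Htr2b_cKO libraries 1 to 4, against 1705 and 1742 CPM in control libraries. Col6a2 (ENSMUSG00000020241, chromosome 10 from 76595762 to 76623630), the alpha2 chain, had 2715, 2458, 1929 and 1758 CPM in Htr2b_cKO libraries, against 1860.4 and 1816 CPM in control libraries. Col6a3 (ENSMUSG00000048126, chromosome 1 from 90765923 to 90843971), the long alpha3 chain whose end is cleaved off as endotrophin, had 1444, 1211, 742 and 868 CPM in Htr2b_cKO libraries, against 793 and 751 CPM in control libraries. For each chain 3 of 4 Htr2b_cKO libraries lay above both controls and the groups overlapped. The exception was the library labelled Htr2b_cKO 4 for Col6a1 and Col6a2, and the one labelled Htr2b_cKO 3 for Col6a3. The controls were within 1.06-fold of each other for all these chains, while the Htr2b_cKO libraries spread 1.54-fold to 1.95-fold.

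None of the collagen VI chains passed the test. Col6a1 had a log2 fold change (Htr2b_cKO minus control) of 0.35 (SE 0.24, 95% interval -0.21 to 0.90, edgeR adjusted p = 0.68). The value was 0.27 for Col6a2 (SE 0.22, interval -0.24 to 0.78, edgeR adjusted p = 0.723) and 0.47 for Col6a3 (SE 0.27, interval -0.16 to 1.09, edgeR adjusted p = 0.625). Without Htr2b_cKO 1 the values of Col6a1, Col6a2 and Col6a3 were 0.23, 0.16 and 0.29, without the library labelled Htr2b_cKO 3 they were 0.45, 0.34 and 0.62, and without both it and the library labelled Htr2b_cKO 4 they were 0.62, 0.49 and 0.78. The edgeR adjusted p of the 3 chains was then 0.398 to 0.489, still short of the threshold of 0.05. That omission keeps only the Htr2b_cKO libraries with high levels of these chains, so the larger values follow from the choice.

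**Figure D2:**
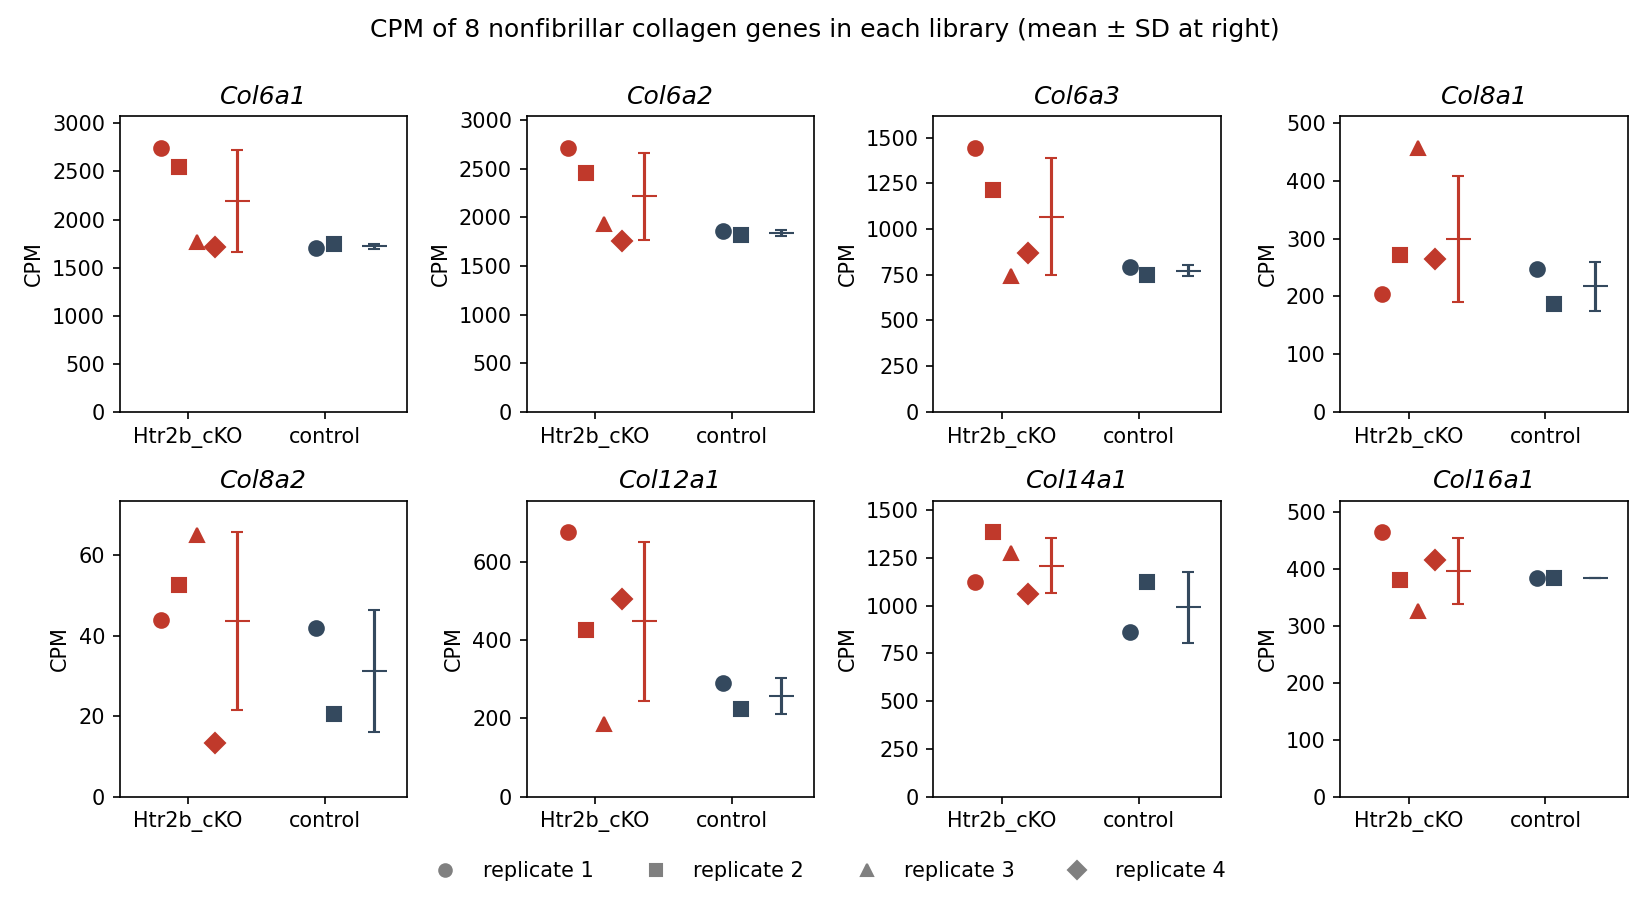
CPM of each member in each library, on axes that start at 0, with Htr2b_cKO left of control; symbols mark replicates and the bar to the right of each group is the mean ± SD. Col6a1, Col6a2 and Col6a3 are highest in Htr2b_cKO 1, at 2747, 2715 and 1444 CPM, and Col8a1 and Col8a2 in the library labelled Htr2b_cKO 3, at 457 and 64.8 CPM.

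The collagen VIII chains were highest in another library. Col8a1 (ENSMUSG00000068196, chromosome 16 from 57624258 to 57754737) had 205, 271, 457 and 265 CPM in Htr2b_cKO libraries 1 to 4, against 248 and 187 CPM in control libraries. Col8a2 (ENSMUSG00000056174, chromosome 4 from 126286793 to 126314330) had 43.8, 52.4, 64.8 and 13.2 CPM in Htr2b_cKO libraries, against 41.9 and 20.5 CPM in control libraries. The library labelled Htr2b_cKO 3 was the highest of the 6 for both genes. The groups overlapped: Htr2b_cKO 1 was below control 1 for Col8a1, and the library labelled Htr2b_cKO 4 was the lowest of the 6 for Col8a2. The fold changes were not distinguishable from the spread between libraries, at a log2 value of 0.46 for Col8a1 (SE 0.31, 95% interval -0.27 to 1.20, edgeR adjusted p = 0.676) and 0.48 for Col8a2 (SE 0.64, interval -1.10 to 2.05, edgeR adjusted p = 0.844). Without the library labelled Htr2b_cKO 3 they were 0.20 and 0.23, and for Col8a2 the value was 0.06 without control 2 and 1.09 without control 1. The macrophage marker sum was also highest in the library labelled Htr2b_cKO 3 (3946 CPM) and lowest in that labelled Htr2b_cKO 4 (316 CPM), the libraries that held the highest and lowest Col8a2. On average 6 of the 8 macrophage markers were higher in Htr2b_cKO than in control libraries, and 0 were called; their part in the collagen VIII values was not tested.

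Of the FACIT genes, Col12a1 had the largest fold change of the 8 members and the widest spread of this family. Col12a1 (ENSMUSG00000032332, chromosome 9 from 79598991 to 79718831) encodes the long chain of collagen XII, a homotrimer of tissues under tension. It had 675, 427, 186 and 506 CPM in Htr2b_cKO libraries 1 to 4, against 291 and 225 CPM in control libraries. The library labelled Htr2b_cKO 3 was the lowest of all 6, and the other 3 Htr2b_cKO libraries lay above both controls. The log2 fold change was 0.80 (SE 0.47, 95% interval -0.34 to 1.94, edgeR adjusted p = 0.64), a 1.74-fold higher mean that did not exceed the spread between libraries. Without the library labelled Htr2b_cKO 3 it was 1.07 (SE 0.23, unadjusted p = 0.00177), with 3 of 3 Htr2b_cKO libraries above both controls, but the edgeR adjusted p of 0.222 did not pass. That library also had the lowest sum of the 7 fibroblast markers, 26870 CPM, against 37318 to 44147 CPM in the other Htr2b_cKO libraries and 32959 and 38843 CPM in control libraries. The low sum was carried by Col1a1, itself a collagen gene, at 17266 CPM in that library. Pdgfra was also lowest of the 6 there, at 668 CPM. Dcn (4884 CPM), Lum (1549.9 CPM), Tcf21 (108 CPM) and Postn (2312 CPM), 4 of the 7 markers, were highest of the 6 there. The next library was close for Dcn (4795 CPM, control 2), Lum (1526 CPM, Htr2b_cKO 1) and Postn (2309 CPM, control 1). For Tcf21 it was at 67.7 CPM (control 1). Postn also holds the MCM in Htr2b_cKO mice, and its log2 fold change was -0.34 (edgeR adjusted p = 0.774). The part of the marker differences of that library in the Col12a1 value was not tested.

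Col14a1 and Col16a1 varied little. Col14a1 (ENSMUSG00000022371, chromosome 15 from 55307750 to 55520803), whose collagen XIV regulates fibril diameter, had 1122, 1383, 1273 and 1061 CPM in Htr2b_cKO libraries, against 860.5 and 1122 CPM in control libraries. Control 1 was the lowest of the 6, and control 2 lay among the Htr2b_cKO libraries. Its log2 fold change was 0.29 (SE 0.19, 95% interval -0.15 to 0.73, edgeR adjusted p = 0.667), and it was 0.11 without control 1 and 0.50 without control 2. Col16a1 (ENSMUSG00000040690, chromosome 4 from 130047840 to 130099283) had 464, 380.0, 327 and 415 CPM in Htr2b_cKO libraries, against 384 and 384 CPM in control libraries. The controls lay in the middle of the Htr2b_cKO values, with a log2 fold change of 0.05 (SE 0.17, 95% interval -0.34 to 0.43, edgeR adjusted p = 0.952). Antisense genes overlap Col12a1 and Col14a1 in the annotation, and since the counting of strand is not stated, reads of a gene and of its antisense partner may not be separated there; a further gene model lies within Col6a3 on the same strand.

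**Figure D3:**
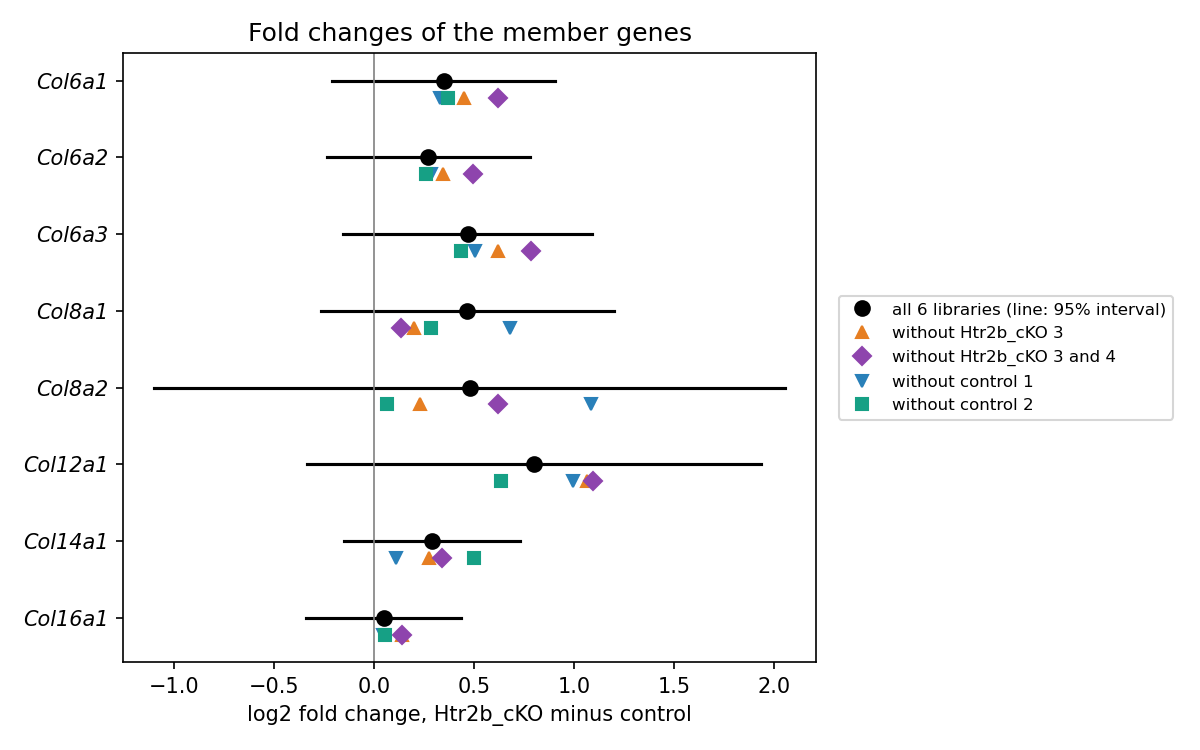
Log2 fold change of each member, Htr2b_cKO minus control, from edgeR with all 6 libraries (black points, with 95% intervals) and after leaving out the libraries named in the key. Every interval with all 6 libraries includes 0, and Col12a1 stands highest at 0.80.

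Read against all genes, 0 of the 8 members were called at an edgeR adjusted p under 0.05, where 0.0189% of the 15840 genes tested were (0.0126% on the higher side). At an unadjusted p under 0.05 the edgeR count was also 0 of 8, where 9.59% of all genes passed (6.6% on the higher side). DESeq2 called 0 of 8, where 0.445% of its genes were called, and Col12a1 alone had an unadjusted p under 0.05, where 4.35% had one on the higher side. No member had groups that did not overlap, where 19.6% of all genes did (10.6% on the higher side). All 8 members had a log2 fold change above 0, where 50% of all genes did, and the median was 0.41 for the members and 0.00 for all genes tested. Without Htr2b_cKO 1, Col16a1 was at -0.03 and 7 of 8 were above 0. The members were measured in the same libraries, so their common sign is not 8 separate observations. Without the library labelled Htr2b_cKO 3, 0 members were called (0.0128% of all genes), and Col12a1 and Col6a3, 2 of 8, had an unadjusted p under 0.05 on the higher side, where 8.62% of all genes did. Without the library labelled Htr2b_cKO 4, 0 were called (0.0513% of all genes) and 1 of 8, Col8a2, had such a p, where 5.47% did. Without both, which left Htr2b_cKO 1 and 2 against the controls, 0 were called (0.0328% of all genes). Then 4 of 8, the collagen VI chains and Col12a1, had such a p, where 5.85% of all genes did. For every gene named under these omissions, its lowest Htr2b_cKO library was among those left out. A larger fold change was thus built in, and these counts are no separate support. In sum, the members had 9415, 8727, 6741 and 6605 CPM in Htr2b_cKO libraries 1 to 4, against 6183 and 6246 CPM in control libraries. Each Htr2b_cKO sum lay above both control sums. Without scaling, the members took 0.638% of counts in the library labelled Htr2b_cKO 4 and 0.635% in control 1. The sum is weighted towards Col6a1 and Col6a2, whose groups overlapped, and it was not compared with sums of other genes.

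The ratio between chains within a library does not depend on how libraries are scaled. Per kb of exon, Col6a2 stood to Col6a1 at 0.520, 0.508, 0.576 and 0.538 in Htr2b_cKO libraries 1 to 4 and at 0.574 and 0.548 in control libraries. Col6a3 stood to Col6a1 at 0.193, 0.174, 0.154 and 0.185 in Htr2b_cKO libraries and at 0.170 and 0.158 in control libraries. The collagen VI chains thus kept these ratios within 0.508 to 0.576 and 0.154 to 0.193 while their levels spread over the Htr2b_cKO libraries. Some genes outside the members stayed as close to single chains, as given below. Collagen VI protein holds its chains in equal numbers. Col6a3 RNA per kb of exon was at 0.154 to 0.193 of Col6a1 RNA over the 6 libraries. Protein was not measured, and RNA proportions need not equal those of the protein. The level of the Col6a2 ratio rests on the length: it averaged 0.536 in Htr2b_cKO and 0.561 in control libraries per kb of exon, and 1.01 and 1.06 per kb of the longest coding sequence. For Col6a3 to Col6a1 the mean was 0.176 in Htr2b_cKO and 0.164 in control libraries per kb of exon, 0.150 and 0.140 by coding length, and 0.196 and 0.182 by the longest transcript.

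The other pairs were less fixed. Col8a2 stood to Col8a1 at 0.373, 0.337, 0.247 and 0.0873 in Htr2b_cKO libraries and at 0.295 and 0.192 in control libraries, with the lowest value in the library labelled Htr2b_cKO 4. Col12a1 stood to Col14a1 at 0.277, 0.142, 0.0673 and 0.220 in Htr2b_cKO libraries and at 0.156 and 0.0922 in control libraries, with the lowest value in the library labelled Htr2b_cKO 3. None of the 4 ratios separated the groups. The exact two-sided permutation test gave p = 0.333 for Col6a2 to Col6a1, 0.467 for Col6a3 to Col6a1, 1.0 for Col8a2 to Col8a1 and 0.667 for Col12a1 to Col14a1, with 0.889 as the smallest value after Benjamini-Hochberg adjustment over the 4. With 15 splits of 4 against 2 libraries the smallest p this test can give is 0.0667, so it could not reach 0.05.

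**Figure D4:**
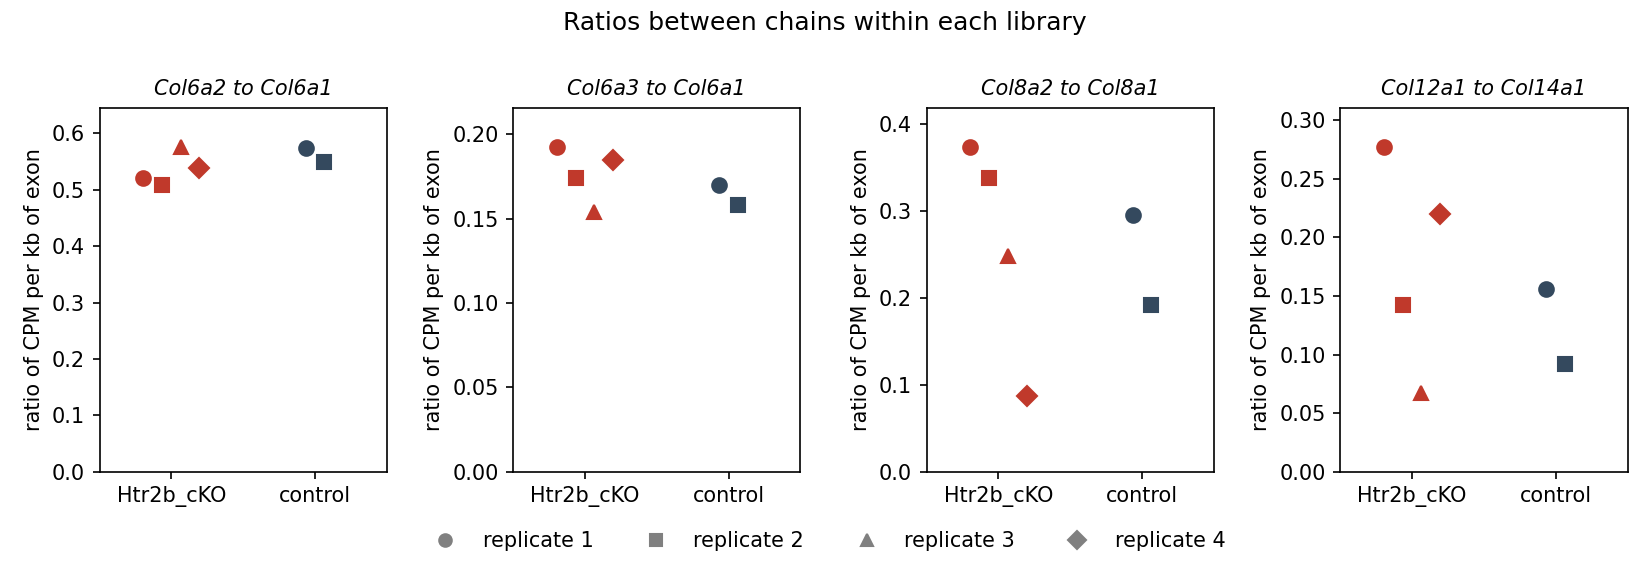
Ratios of CPM per kb of exon between chains within each library, on axes that start at 0, with Htr2b_cKO left of control and symbols marking replicates. The Col6a2 to Col6a1 ratio lies between 0.508 and 0.576 in all libraries, while the Col8a2 to Col8a1 ratio runs from 0.0873 to 0.373.

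The members fell into patterns over the 6 libraries that followed the protein families only in part. Likeness was taken as the root mean square difference of log2 CPM after centring each gene over the libraries. Among the members Col6a1 and Col6a2 were closest, at 0.07, followed by Col6a1 with Col6a3 at 0.11 and Col6a2 with Col6a3 at 0.17; the pair Col6a2 with Col16a1 came next at 0.21. Among 9217 other protein-coding genes of mean CPM 10 or more, the nearest to Col6a2 was Nfatc1, a calcium-regulated transcription factor gene, at 0.03, and it was also the nearest to Col6a1 at 0.08. Jarid2, a subunit gene of a Polycomb complex, was nearest to Col6a3 at 0.09. Nfatc1 was thus nearer to Col6a2, and Jarid2 to Col6a3, than any other member was, while Col6a1 was nearer to Col6a2 than to Nfatc1. A steady proportion over these libraries is therefore not particular to the collagen VI chains. Id2, an inhibitor of helix-loop-helix factors, was nearest to Col8a1 at 0.11. The nearest to Col8a2 were Nceh1 at 0.17 and the macrophage marker Mrc1 at 0.23. Mrc1 had 49.99, 94.2, 111 and 16.5 CPM in Htr2b_cKO libraries and 61.5 and 29.1 CPM in control libraries. Lyz2, the most abundant macrophage marker, ranked 3208 of 9217 for Col8a2, at 0.78, and 9189 for Col8a1, at 1.13. The distance also counts the size of the swings, which were wide for Lyz2. It ran from 163 CPM in the library labelled Htr2b_cKO 4 to 2517 CPM in that labelled Htr2b_cKO 3. These libraries also held the lowest and highest Col8a2, so the ranks of Lyz2 do not describe its order over the libraries. Pappa, a protease gene that frees insulin-like growth factors, was nearest to Col12a1 at 0.21, Rap1b to Col14a1 at 0.02 and Anks6 to Col16a1 at 0.03. These distances describe 6 libraries and carry no test.

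**Figure D5:**
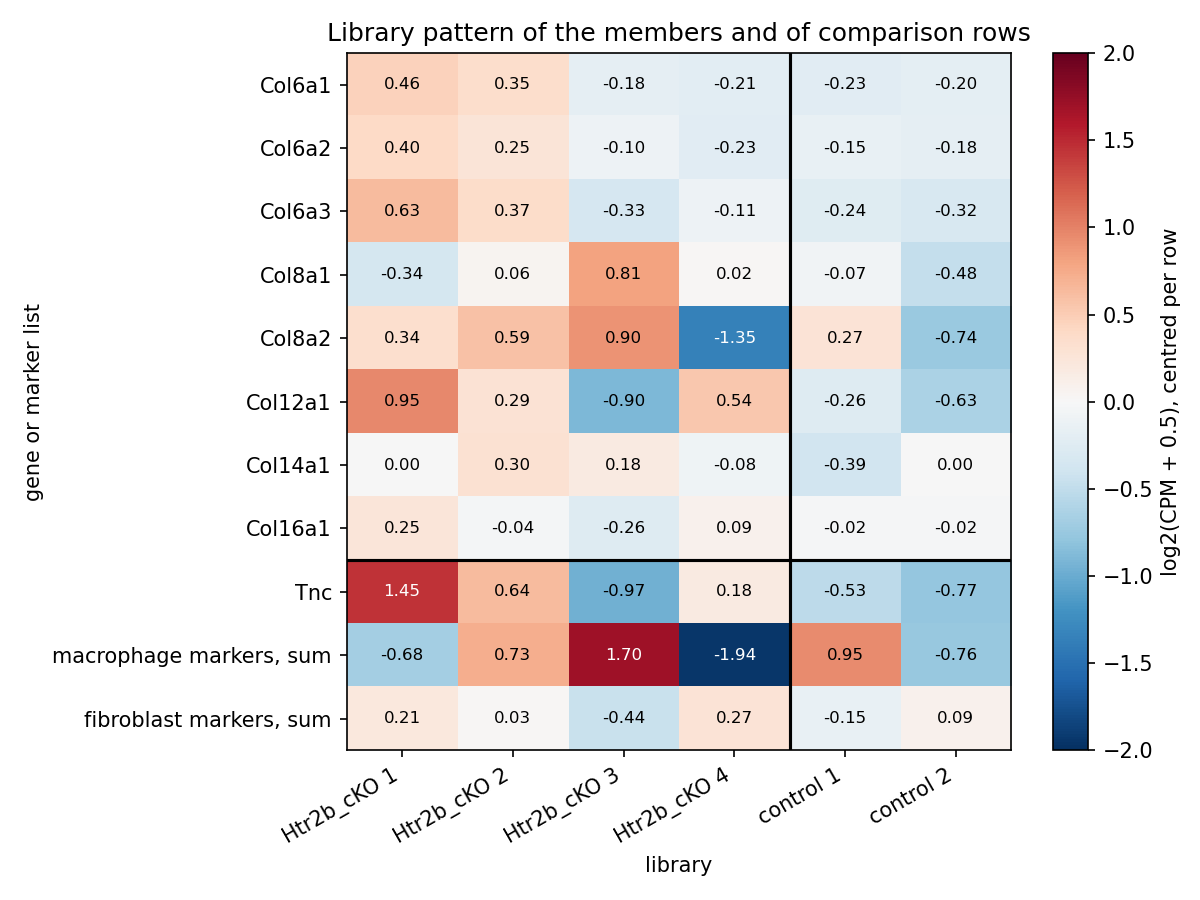
Log2(CPM + 0.5) of each member, of Tnc and of the summed macrophage and fibroblast markers in each library, centred per row; Htr2b_cKO libraries are left of the line and control libraries right of it. Col6a3 reads 0.63 in Htr2b_cKO 1, and Col12a1 reads -0.90 in the library labelled Htr2b_cKO 3, where Col8a1 reads 0.81.

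Genes whose products act with these collagens did not pass the test either. Of 20 receptors and binding partners, 19 were tested and 0 were called; the log2 fold change was positive for 13 and had a median of 0.09. The smallest p values belonged to Itga11 and Cspg4. Itga11, the alpha subunit of a collagen-binding integrin of myofibroblasts, had 47.5, 33.4, 43.2 and 33.3 CPM in Htr2b_cKO libraries, against 31.4 and 27.3 CPM in control libraries (log2 fold change 0.42, SE 0.19, edgeR adjusted p = 0.533). Its groups did not overlap, as for 19.6% of all genes. Cspg4, the NG2 proteoglycan that binds collagen VI and also marks pericytes, had 7.95, 10.7, 6.13 and 4.72 CPM in Htr2b_cKO libraries, against 4.94 and 3.33 CPM in control libraries (log2 fold change 0.82, edgeR adjusted p = 0.541). The most abundant partners were the proteoglycan genes Dcn, at 4357 ± 497 CPM in Htr2b_cKO and 4080 ± 1011 CPM in control libraries, and Bgn, at 3785 ± 34.0 CPM in Htr2b_cKO and 3840 ± 203 CPM in control libraries. Tnc, a wound matrix gene of the same list that was singled out after its values were seen, had the largest fold change in it. It had 1837, 1046, 344 and 761 CPM in Htr2b_cKO libraries, against 466 and 395 CPM in control libraries (log2 fold change 1.21, SE 0.63, edgeR adjusted p = 0.606). The value was 0.75 without Htr2b_cKO 1 and 1.51 without the library labelled Htr2b_cKO 3. As for Col12a1, the library labelled Htr2b_cKO 3 was the lowest of the 6 and the other 3 Htr2b_cKO libraries lay above both controls, and Tnc ranked 11 among the 9217 genes in likeness to Col12a1.

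Further chains of the same families were scarce or mixed. Of 11 listed, Col21a1 had no entry under that symbol in the deposited table, and 7 passed the low-count filter. Of these 7, 0 were called, 5 were above 0 and the median was 0.13. Col6a5, a chain that can stand in for alpha3, had 96.2, 146, 113 and 285 CPM in Htr2b_cKO libraries, against 133 and 288 CPM in control libraries (log2 fold change -0.39, SE 0.51, edgeR adjusted p = 0.839). Col6a6 had 96.6, 64.3, 107 and 63.3 CPM in Htr2b_cKO libraries, against 63.5 and 90.03 CPM in control libraries. Unlike Col6a3, Col6a5 was high in the library labelled Htr2b_cKO 4 and in control 2. Col9a3, a FACIT chain of cartilage, had low levels, at 0.633 to 1.54 CPM in Htr2b_cKO and 0.546 and 0.615 CPM in control libraries (edgeR adjusted p = 0.688). Of 11 fibrillar chains 9 were above 0, with a median of 0.12 and 0 called. Col27a1 had the smallest p, at 66.0 ± 6.31 CPM in Htr2b_cKO and 53.9 ± 1.33 CPM in control libraries (edgeR adjusted p = 0.558). Col5a2, of the fibril-nucleating collagen V, had 3185 ± 448 CPM in Htr2b_cKO and 2588 ± 135 CPM in control libraries (edgeR adjusted p = 0.673). Col1a1 and Col3a1, the most abundant of the list, had log2 fold changes of 0.08 and 0.11.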

How the data were processed

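The authors deposited estimated counts per Ensembl gene, not normalized and all whole numbers. They also deposited a normalized signal that differs from those counts by gene-specific factors and served in an alternative only. The submitters' processing notes name DRAGEN, DESeq2 and mm10. The sources used here state neither the strand setting nor the annotation. The genotype label set the groups, 4 Htr2b_cKO and 2 control libraries, numbered within a group in accession order. The series design counts 4 experimental and 2 control animals, 1 for every library as understood here; p-values measure the spread between these libraries.

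Symbols, coordinates and lengths came from GENCODE M21 (mm10), which held all 42256 identifiers. Counts, used as deposited, were tested with edgeR 4.0.16 in R 4.3.3 (quasi-likelihood F test, TMM, filterByExpr, robust, genotype as the only term), leaving 15840 genes. A Benjamini-Hochberg adjusted p under 0.05 over these was a call. SE was taken as the log2 fold change over the root of F. CPM use TMM-scaled totals, where a count of 0 allows up to 3 counts, 0.0781 to 0.108 CPM, covering counting error only. The fitting scripts were tested on simulated data. No library was a copy of another: chi-square per degree of freedom was 47.4 to 191 over the 15 pairs.

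Alternatives were RLE factors, no filter, DESeq2 1.42.0, limma voom 3.58.1, libraries left out, a GC and length correction, the authors' factors and, added after the data were seen, the legacy dispersion. Named genes were the members, Htr2b, Postn and Pdgfra, the 2 smallest p and 2 highest levels of each list, and the 2 genes nearest each member; some are not described. The members and lists were chosen with earlier results of these data known.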

Additional observations from a re-analysis of the deposited data

Results flagged for a closer look

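Of 36 values examined over the 4 Htr2b_cKO libraries (single genes, chain ratios and marker sums), 1 had a library far from the others, where chance flags about 1 in 20. Htr2b was at 0.876 CPM in the library labelled Htr2b_cKO 3, and the nearest of the other Htr2b_cKO libraries was at 0.119 CPM. No member gene and no chain ratio was flagged in this way.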

How the results depend on the processing

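No paired analysis was possible because the labels give the libraries no shared replicate number. The number of members called was 0 under every alternative run, and the median member log2 fold change ran from 0.31 to 0.56, with 0.41 in the main fit. The genes called over the whole table numbered 3, against 5 without the low-count filter, 106 with DESeq2, 5 without both libraries labelled Htr2b_cKO 3 and 4, and 1 to 8 when single libraries were left out (1 without control 1, 6 without control 2, 8 without the library labelled Htr2b_cKO 4).

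When single libraries were left out, the log2 fold change of Col16a1 ran from -0.0300 to 0.140, Htr2b from -0.26 to 0.26 over the omissions that kept it, Pdgfra from -0.46 to 0.30, Col6a5 from -0.85 to 0.28, Col6a6 from -0.12 to 0.39, Dcn from -0.14 to 0.38, Bgn from -0.0670 to 0.0319, Col3a1 from -0.11 to 0.37 and Col1a1 from -0.0398 to 0.277. Htr2b did not pass the low-count filter without the library labelled Htr2b_cKO 3, which held 29 of its counts, so that omission, alone or with the library labelled Htr2b_cKO 4, gave no value; the main value was -0.11 and limma voom gave -1.28. The log2 difference between groups in the Col8a2 to Col8a1 ratio ran from -0.37 to 0.40 and in the Col12a1 to Col14a1 ratio from -0.00265 to 0.78. After the GC and length correction Dcn was at -0.32 and Bgn at 0.0487, and without both libraries labelled Htr2b_cKO 3 and 4 Dcn was at -0.0292. Postn was at -0.88 after that correction, with -0.34 in the main fit. The cause of these changes was not tested. Each member had at least 446 counts in every library.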
